A study of Mus musculus with 6 samples.

Results

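Collagen chain genes encode the polypeptides that assemble, 3 at a time, into every collagen of the body. The 43 mouse genes described here were taken by name, as a family, from 18460 genes listed in at least 1 of 6 breast tumors. The family was chosen with earlier results of these data known. All 43 were listed in at least 1 tumor. They comprised 11 fibrillar, 9 network, 4 transmembrane, 9 FACIT (fibril-associated collagens with interrupted triple helices), 5 beaded filament, 2 multiplexin and 1 anchoring fibril gene, and 2 others.

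The 6 tumors were spontaneous breast tumors of Balb/c mice carrying the *PyMT* oncogene (PyMTtg) and lacking *Rag1* (Rag1KO), so that the hosts had no T or B cells of their own. *PyMT* is driven by the MMTV promoter, which is active in mammary epithelium. Every host, control or test, had been injected with CD4+ T cells at 4 weeks of age, and tumors were collected at endpoint, week 18 to 20. The 3 control tumors came from PyMTtg;Rag1KO hosts, and the 3 test tumors came from K14-TSLPtg;PyMTtg;Rag1KO hosts, in which a keratin 14 promoter drives thymic stromal lymphopoietin (TSLP), an epithelial cytokine, in keratinocytes. The comparison asks how the tumors of T cell-reconstituted hosts differ with the *Tslp* transgene. Per the paper's methods and legends, no mouse gave more than 1 tumor, so replicates are separate animals.

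Expected counts, which are estimates of the reads from each gene, summed to between 8373390 and 9449565 per tumor. Across the 13706 genes tested, log2 expression of control replicate 2 had a Pearson correlation of 0.874 and 0.908 with the other control tumors, against 0.921 to 0.935 with the test tumors. Calls that change when control replicate 2 is left out are given both ways. *Tslp* had 2, 2 and 3 counts in control replicates 1 to 3 and 12, 7 and 2 in test replicates 1 to 3, so it separated the groups in only part of the tumors. *Rag1*, the targeted gene, had 4 to 27 counts in the control and 6 to 12 in the test tumors. Which part of *Rag1* these counts cover is not given in the sources used here. Summed FPKM (fragments per kilobase of gene and per total reads, a level scaled by gene length) of the luminal epithelial markers was 866 to 2015 in the control and 2622 to 2788 in the test tumors. All 5 of these markers were higher in the test tumors, where 48.5% of all genes tested were lower. For 3 of them, *Krt8*, *Krt18* and *Krt19*, the groups did not overlap (6.12% of all genes tested were higher without overlap).

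As background, a fibrillar collagen forms long rope-like fibrils that give a tissue tensile strength, and FACIT chains sit on the surface of those fibrils. Network collagens form sheets, of which type IV is the scaffold of every basement membrane, including that around mammary ducts and vessels. In breast tumors, type I and III fibrils are laid down mainly by stromal fibroblasts, and types II, IX and XI are the collagens for which cartilage is known.

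The chains of 1 collagen are often encoded in pairs, and promoters of some of the described genes are shown first. The part of a shared promoter in the levels of a pair was not tested. *Col4a1* (NCBI Gene 12826) spans chr8:11198423-11312889 and *Col4a2* (12827) spans chr8:11312805-11449287 on GRCm38, head to head on opposite strands. These spans are from GENCODE. The RefSeq transcript starts from which the windows are measured lie 21 bases apart, with the first bases of both transcripts overlapping. The windows below are RefSeq sequences on GRCm38.p6, from 250 bases before to 50 bases after the start, written 5′ to 3′ on the strand of each gene. Capitals mark the 78 bases, chr8:11312777-11312854, that both windows share, read from opposite strands.
*Col4a1*, chr8:11312777-11313076, minus strand: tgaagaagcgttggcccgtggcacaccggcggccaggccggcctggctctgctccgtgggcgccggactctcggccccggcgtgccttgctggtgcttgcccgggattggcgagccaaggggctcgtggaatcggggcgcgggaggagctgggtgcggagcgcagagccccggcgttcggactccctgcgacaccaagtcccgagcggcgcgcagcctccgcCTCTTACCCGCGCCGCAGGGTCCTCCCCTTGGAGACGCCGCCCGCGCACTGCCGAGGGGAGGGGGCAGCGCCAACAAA
*Col4a2*, chr8:11312555-11312854, plus strand: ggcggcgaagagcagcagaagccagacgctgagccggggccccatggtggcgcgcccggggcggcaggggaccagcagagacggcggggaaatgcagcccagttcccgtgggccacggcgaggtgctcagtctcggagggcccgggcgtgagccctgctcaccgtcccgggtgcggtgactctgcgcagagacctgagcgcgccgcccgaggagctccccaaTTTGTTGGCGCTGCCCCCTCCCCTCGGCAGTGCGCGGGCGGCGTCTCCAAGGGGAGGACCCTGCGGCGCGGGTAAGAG

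Promoter windows of the collagen genes were compared with all promoter windows by 3 short motifs, searched on both strands. These were the TATA box TATAAA, the CCAAT box CCAAT and the GC box GGGCGG. RefSeq gave 37 windows for 34 of the 43 genes and none for the other 9. TATAAA was found in 5 of 37 windows (13.5%), against 13.6% of all 32851 windows of the same length. CCAAT was found in 12 (32.4% against 37.4%) and GGGCGG in 22 (59.5% against 35.7%). Such a match is a description of letters and not a binding site. The windows of *Col25a1* and *Col11a2*, whose groups did not overlap, and of *Col1a2*, whose groups did, are shown with motif matches in capitals, on GRCm38.p6 and on the plus strand. None of the matches in these windows overlap each other.
*Col25a1*, chr3:130180595-130180894: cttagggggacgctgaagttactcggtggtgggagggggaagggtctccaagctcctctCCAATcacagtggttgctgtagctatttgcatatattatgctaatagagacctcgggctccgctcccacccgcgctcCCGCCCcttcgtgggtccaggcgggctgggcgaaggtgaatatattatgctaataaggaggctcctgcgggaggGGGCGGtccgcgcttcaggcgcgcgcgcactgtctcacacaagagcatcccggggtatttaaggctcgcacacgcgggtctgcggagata
*Col11a2*, chr17:34038888-34039187: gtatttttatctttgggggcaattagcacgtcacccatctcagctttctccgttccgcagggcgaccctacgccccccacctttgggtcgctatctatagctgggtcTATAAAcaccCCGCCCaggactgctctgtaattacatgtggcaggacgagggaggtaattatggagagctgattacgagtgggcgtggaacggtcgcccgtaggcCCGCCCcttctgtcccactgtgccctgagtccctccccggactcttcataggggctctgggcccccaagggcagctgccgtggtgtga
*Col1a2*, chr6:4505368-4505667: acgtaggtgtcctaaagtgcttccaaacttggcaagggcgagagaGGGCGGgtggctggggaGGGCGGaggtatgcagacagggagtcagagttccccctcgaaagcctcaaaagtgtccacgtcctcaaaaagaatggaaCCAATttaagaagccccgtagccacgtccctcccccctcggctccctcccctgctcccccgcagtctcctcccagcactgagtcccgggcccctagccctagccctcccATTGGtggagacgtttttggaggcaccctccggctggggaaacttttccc

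Collagen transcripts formed 1.42%, 0.58% and 1.18% of all counts in control replicates 1 to 3 and 0.26%, 0.769% and 0.497% in test replicates 1 to 3. The test tumors thus lay below control replicates 1 and 3, and control replicate 2 lay within their range. Of the 43 genes, 35 had enough counts to be tested and 8 did not. No collagen gene passed edgeR's quasi-likelihood test at a Benjamini-Hochberg adjusted p of 0.05, which called 0.0% of the 13706 genes tested. At an unadjusted p under 0.05, the same test marked 12 of the 35 collagen genes (34.3%), against 8.41% of all genes tested. All 12 were lower in the test tumors and 0 were higher, whereas 5.26% of all genes tested were lower and 3.15% higher at that p. DESeq2 called 8 collagen genes, 19.5% of the 41 with an adjusted p, against 2.37% of all genes, and limma on log2 FPKM called 0. The 8 were *Col2a1*, *Col11a2*, *Col4a1*, *Col4a2*, *Col8a2*, *Col9a1*, *Col23a1* and *Col25a1*. Their DESeq2 adjusted p ran from 8.08e-08 for *Col25a1* to 0.0292 for *Col23a1*. When control replicate 2 was left out, edgeR called 6 of 37 collagen genes (16.2%), against 1.28% of all genes. Leaving out any other tumor gave 0 collagen genes called.

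The groups did not overlap for 6 of the 35 tested genes (17.1%), against 12.0% of all genes tested. The test tumors were lower for all 6, whereas over all genes tested 5.86% were lower and 6.12% higher without overlap. Some of the 6 were separated only narrowly, after scaling to library size. Control replicate 2 and test replicate 3 both had 15 counts of *Col11a2*, and had 1007 and 1025 counts of *Col4a5*. For *Col23a1*, control replicate 2 had 114 counts and test replicate 1 had 105. Across the 35 genes, 20 were lower and 15 higher in the test tumors by any amount, where 48.5% of all genes tested were lower, and the median log2 fold change (test minus control) was −0.20, against 0.018 for all genes tested. Leaving out each tumor in turn gave medians from −0.66 to 0.11, the latter without control replicate 3. A log2 fold change of −2 or less was found for 9 collagen genes, whereas 2.19% of all genes reached it. In bulk tissue, fewer cells of a type and less RNA per cell cannot be told apart.

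**Figure D1:**
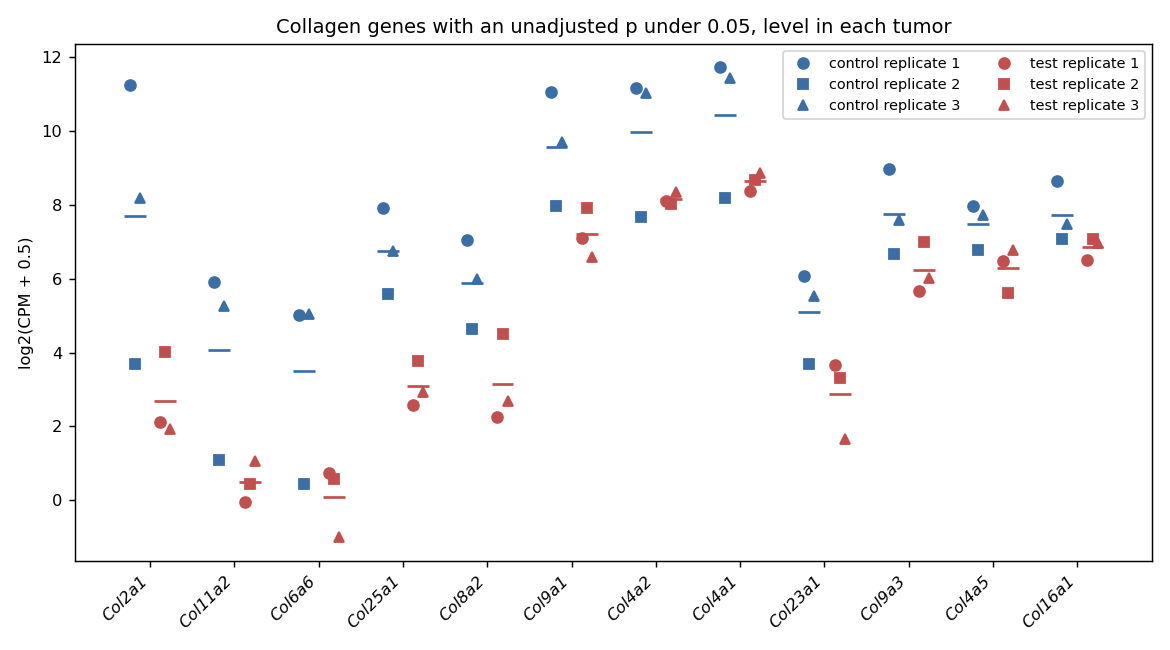
Level of the 12 collagen genes with an unadjusted p under 0.05 in each tumor, as log2(CPM + 0.5), where CPM is the count scaled to TMM library size. Points are the 6 tumors and short lines are the means of the 3 log2 values of a group; the control points of *Col2a1* run from 12.3 to 2433 CPM and the test points from 3.29 to 15.8 CPM.

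The make-up of the collagen transcripts differed widely among the control tumors. Type I chains held 2.36%, 40.7% and 13.2% of the summed collagen FPKM in control replicates 1 to 3 and 20.8%, 43.1% and 30.3% in test replicates 1 to 3. The type IV chains *Col4a1* and *Col4a2* held 30.9%, 7.06% and 36.8% in the control and 19.8%, 6.5% and 13.5% in the test tumors. Control replicates 1 and 3 thus had a larger share of type IV and a smaller share of type I than the other tumors. Control replicate 2 lay within the range of the test tumors for both. A share is not a level: *Col1a1* had 817 CPM in control replicate 3, against 275 and 824 CPM in test replicates 1 and 3. The highest chain by FPKM was *Col9a1* in control replicate 1 and *Col4a1* in control replicate 3. It was *Col1a1* in control replicate 2 and in every test tumor. Type II held 17.2% of collagen FPKM in control replicate 1, 2.88% in control replicate 3 and at most 0.229% in the other tumors.

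**Figure D2:**
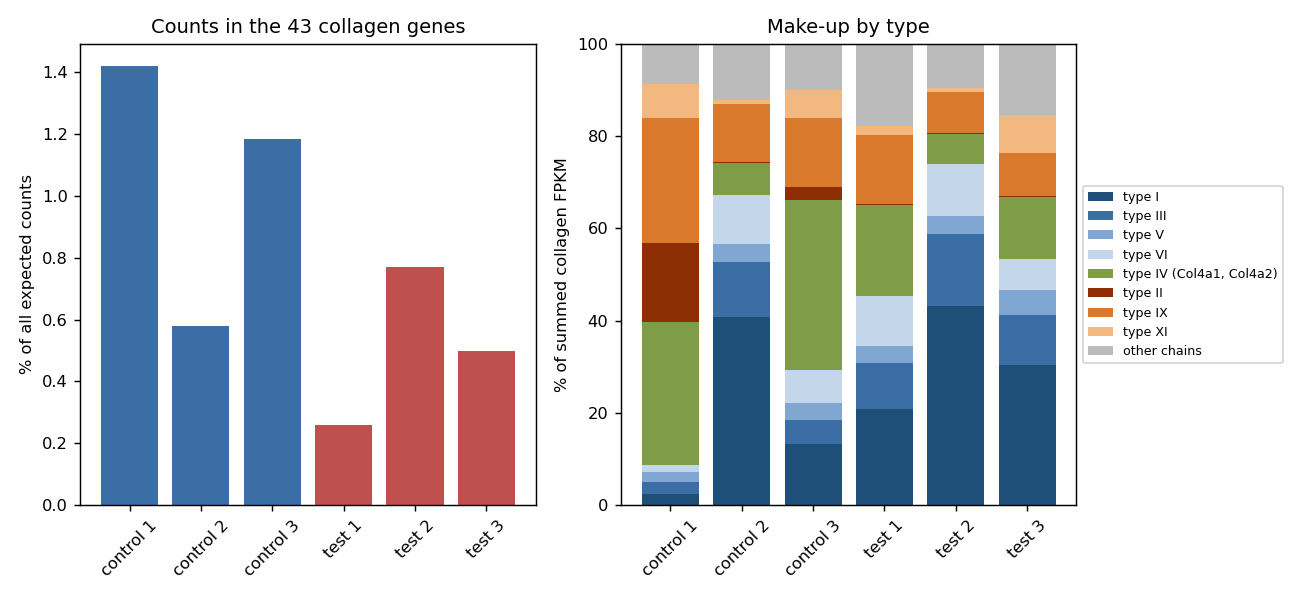
Left, share of all expected counts in the 43 collagen genes (%, bars, 1 per tumor); right, share of the summed collagen FPKM held by each collagen type (%, stacked bars). Type I (dark blue) ranges from 2.36% in control replicate 1 to 43.1% in test replicate 2, and type IV (green) is largest in control replicates 1 and 3.

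The fibrillar genes include chains of the common fibrils of connective tissue and of the fibrils of cartilage, a division by known tissue and not by these values. Of 10 tested, 5 were lower and 5 higher, 2 had an unadjusted p under 0.05 (8.41% of all genes tested), and the median log2 fold change was −0.06. Leaving out 1 tumor moved that median between −0.52 and 0.27, so it has no stable sign. Types I, III and V had 6 genes, none of which had an unadjusted p under 0.05, with a median of 0.19.

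*Col1a1* (NCBI Gene 12842, chr11:94936224-94953042), which encodes the main chain of type I collagen, had 108, 1363 and 817 CPM in control replicates 1 to 3 and 275, 2022 and 824 CPM in test replicates 1 to 3. Both groups spanned low and high tumors and overlapped. The log2 fold change was 0.45 ± 0.93 (SE, n = 3 and 3), with an adjusted p of 0.908 by edgeR's quasi-likelihood test and a two-sided exact permutation p of 0.6. Throughout, SE is the size of the log2 fold change over the square root of the edgeR F statistic, and not the spread of the tumors. Its sign turned to −0.07 without control replicate 1 and to −0.47 without test replicate 2. *Col1a2*, the partner chain of type I, had 223, 744 and 475 CPM in the control and 205, 1268 and 492 CPM in the test tumors. The tumors stood in nearly the order of *Col1a1*, with test replicate 2 highest in both, and the log2 fold change was 0.45 ± 0.69 (SE). *Col3a1* (12825, chr1:45311538-45349706), the chain of type III fibrils that mix with type I in soft tissue, had 408, 716 and 580 CPM in the control and 260, 1371 and 538 CPM in the test tumors. Test replicate 2 was again the highest and test replicate 1 the lowest. Its log2 fold change was 0.35 ± 0.58 (SE), which turned to −0.51 without test replicate 2.

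The type V chains, which start and limit the width of type I fibrils, overlapped between the groups. *Col5a1* had 48.7 to 133 CPM in the control and 45.8 to 156 CPM in the test tumors, and *Col5a3* had 13.1 to 73.8 and 10.5 to 44.8 CPM. *Col5a2* had 344, 153 and 345 CPM in the control and 69.2, 227 and 201 CPM in the test tumors, and its log2 fold change was −0.76 ± 0.50 (SE). *Col27a1*, a fibrillar chain of developing cartilage, had a log2 fold change of 0.36 ± 0.80 (SE). *Col24a1* had too few counts to be tested.

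*Col2a1* (NCBI Gene 12824, chr15:97975602-98004724), the chain of the main cartilage fibril, had 2433, 12.3 and 293 CPM in control replicates 1 to 3 and 3.81, 15.8 and 3.29 CPM in test replicates 1 to 3. Control replicates 1 and 3 were high, and control replicate 2 lay between test tumors, so the groups overlapped. The log2 fold change was −6.91 ± 1.81 (SE), with an adjusted p of 0.407 by edgeR's quasi-likelihood test and a two-sided exact permutation p of 0.2. Its edgeR adjusted p was 0.0428 without control replicate 2, 0.996 without control replicate 1 and 0.916 without control replicate 3. Without control replicate 1 the log2 fold change was −4.34. *Col11a2* (12815, chr17:34038919-34066684), a chain of the type XI fibrils that thread through type II, had 59.1, 1.62 and 37.6 CPM in the control and 0.461, 0.854 and 1.59 CPM in the test tumors. The groups did not overlap, but control replicate 2 was only just above test replicate 3. The difference was −5.05 ± 1.20 (SE) on the log2 scale, with an adjusted p of 0.394 by edgeR's quasi-likelihood test and a two-sided exact permutation p of 0.1, the smallest that 3 against 3 tumors can give. The edgeR adjusted p of *Col11a2* was 0.0140 without control replicate 2, 0.996 without control replicate 1 and 0.916 without control replicate 3. *Col11a1*, the partner chain, had 1427, 66.0 and 845 CPM in the control and 62.6, 101 and 534 CPM in the test tumors, and its log2 fold change was −1.74 ± 1.12 (SE). It was also high in test replicate 3, where *Col11a2* was not.

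Of the 7 FACIT genes tested, 4 were lower and 3 higher in the test tumors, 3 had an unadjusted p under 0.05 (8.41% of all genes tested), and the median log2 fold change was −0.33. Type IX chains are the FACIT members that coat type II fibrils. Over the 6 genes of types II, IX and XI, a grouping made with earlier results known, 5 were lower, 4 had an unadjusted p under 0.05 (8.41% of all genes tested), and the median was −2.25. *Col9a1* (NCBI Gene 12839, chr1:24177589-24252738) had 2125, 252 and 836 CPM in control replicates 1 to 3 and 137, 239 and 96.7 CPM in test replicates 1 to 3. Every control tumor was above every test tumor, although control replicate 2 exceeded test replicate 2 by little. The log2 fold change was −2.76 ± 0.76 (SE), with an adjusted p of 0.425 by edgeR's quasi-likelihood test and a two-sided exact permutation p of 0.1. Without control replicate 1 it was −1.79. *Col9a3* (12841, chr2:180598102-180622192) had 507, 101 and 193 CPM in the control and 50.4, 127 and 63.9 CPM in the test tumors. The groups overlapped through control replicate 2 and test replicate 2, and the log2 fold change of −1.73 ± 0.63 (SE) was −0.88 without control replicate 1. *Col9a2*, which encodes the remaining chain of the trimer, did not share this pattern. It had 91.7, 92.0 and 44.8 CPM in the control and 48.9, 87.3 and 99.0 CPM in the test tumors, and its log2 fold change was 0.04 ± 0.38 (SE). Per length, the *Col9a1* to *Col9a2* ratio of FPKM was 16.3 in control replicate 1, 1.93 in control replicate 2, 13.2 in control replicate 3 and 0.687 to 1.97 in the test tumors.

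Markers of cartilage cells were measured beside these chains. The summed FPKM of 7 chondrocyte markers was 213, 1.75 and 143 in control replicates 1 to 3 and 1.01 to 7.1 in the test tumors, so it was high in the same tumors as *Col2a1*. *Cnmd*, *Comp* and *Snorc* made up that sum, with 152, 26.6 and 33.9 FPKM in control replicate 1. *Acan*, the large cartilage proteoglycan and a defining marker, was at 0.1 FPKM or less in every tumor, and *Matn1*, another, was at 0 in all 6. The osteoblast markers summed to 42.3, 7.14 and 25.9 FPKM in the control and 1.49 to 2.69 FPKM in the test tumors. *Dmp1* held most of that sum in control replicate 1, with 35.2, 2.91 and 15.5 FPKM in the control and 0.34 to 1.14 FPKM in the test tumors. *Bglap* had 4.23 to 9.8 and 0.35 to 2.02 FPKM. These values rest on 17, 16 and 42 counts in the control and 3, 6 and 1 counts in the test tumors. The test values are thus at or near 3 counts, the limit that the depth can show. *Dmp1* and *Bglap* were both lower in the test tumors without overlap (5.86% of all genes tested). *Ibsp* was above 0 only in control replicates 1 and 3, and *Sp7* was at 0 in all tumors. The part of such cells in the collagen values was not tested.

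**Figure D3:**
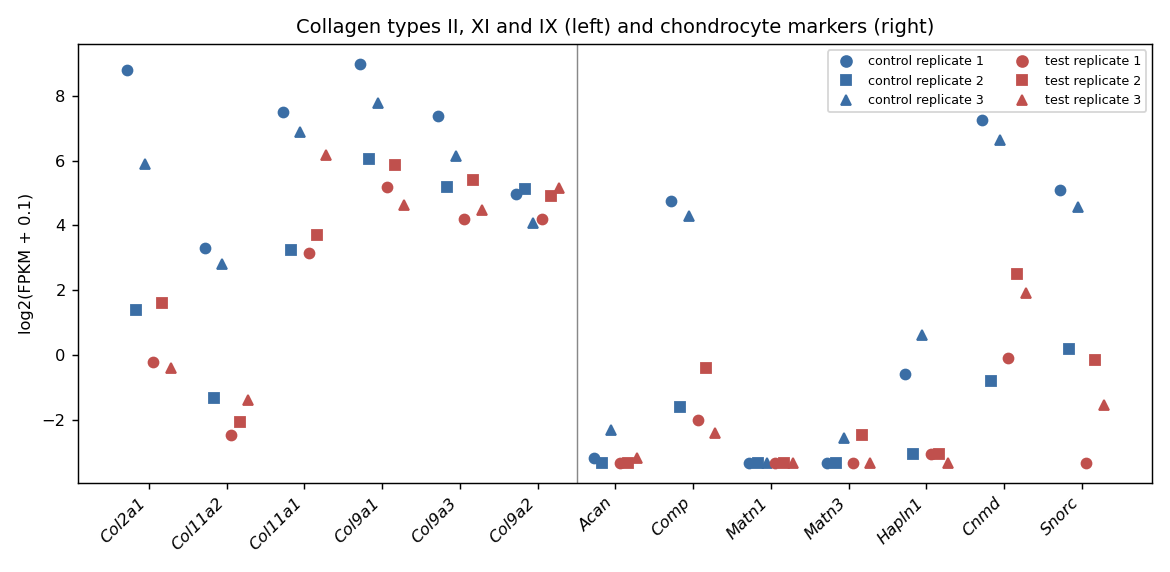
FPKM on a log2 scale, as log2(FPKM + 0.1), of the 6 type II, XI and IX genes (left of the line) and of 7 chondrocyte markers (right) in each tumor. Control replicates 1 and 3 are high for *Col2a1*, *Col11a2*, *Comp*, *Cnmd* and *Snorc*, whereas *Matn1* is at 0 in all 6 tumors and *Acan* is near 0.

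Among the network genes, 5 of 7 tested were lower in the test tumors (48.5% of all genes tested), 4 had an unadjusted p under 0.05 (8.41% of all genes tested), and the median log2 fold change was −1.22. *Col4a1*, a chain of the ubiquitous type IV network, had 3386, 290 and 2759 CPM in control replicates 1 to 3 and 335, 409 and 462 CPM in test replicates 1 to 3. *Col4a2*, the chain it pairs with, had 2309, 205 and 2110 CPM in the control and 276, 260 and 326 CPM in the test tumors. Control replicates 1 and 3 were far above all other tumors for both chains, and control replicate 2 was the lowest of all 6. The log2 fold changes were −2.42 ± 0.78 (SE) for both, with adjusted p values of 0.473 and 0.472 by edgeR's quasi-likelihood test and a two-sided exact permutation p of 0.4 for each. Without control replicate 2 the edgeR adjusted p values were 0.0179 and 0.0154, and without control replicate 3 both were 0.987. The *Col4a1* to *Col4a2* ratio of FPKM stayed between 1.17 and 1.53 in the 6 tumors, while *Col4a1* itself ran from 44.8 to 471 FPKM. Endothelial markers, a list for cells that make basement membrane, summed to 29.6 to 38.0 FPKM in the control and 34.0 to 42.2 FPKM in the test tumors.

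The other type IV pairs were expressed at lower levels per length. *Col4a5* (NCBI Gene 12830, chrX:141475370-141689236), a chain of specialised basement membranes, had 248, 109 and 213 CPM in the control and 87.98, 48.6 and 108.8 CPM in the test tumors. The groups did not overlap, although control replicate 2 and test replicate 3 were nearly equal. Its log2 fold change was −1.22 ± 0.41 (SE), with an adjusted p of 0.483 by edgeR's quasi-likelihood test. The RefSeq start of *Col4a6* lies 1343 bases from that of *Col4a5*, on the other strand. *Col4a6* had 8.22, 8.11 and 7.46 CPM in the control and 12.1, 7.69 and 6.79 CPM in the test tumors. Only test replicate 1 was above every control tumor. The log2 fold change of *Col4a6* was 0.16 ± 0.37 (SE), so its sign is not established and the pair cannot be compared by sign. *Col4a4* had 1.85 to 5.75 CPM in all tumors, and *Col4a3* was not tested.

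*Col8a2* (NCBI Gene 329941, chr4:126286794-126314330), a short-chain network collagen of vessels and cornea, had 131, 24.4 and 63.6 CPM in the control and 4.27, 22.0 and 5.94 CPM in the test tumors. The groups did not overlap, and control replicate 2 and test replicate 2 were close. The log2 fold change was −2.77 ± 0.80 (SE), with an adjusted p of 0.446 by edgeR's quasi-likelihood test. *Col8a1*, its partner chain, was the reverse in sign, with 43.5, 66.9 and 58.0 CPM in the control and 22.6, 194 and 91.8 CPM in the test tumors. Its log2 fold change was 0.87 ± 0.65 (SE), and the groups overlapped. *Col10a1*, of hypertrophic cartilage, was not tested and had at most 8 counts in a tumor.

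Of the 4 transmembrane genes, whose chains stay anchored in the cell membrane, 3 were lower in the test tumors (48.5% of all genes tested) and 2 had an unadjusted p under 0.05 (8.41% of all genes tested), with a median log2 fold change of −1.28. That median was −0.73 without control replicate 3. *Col25a1* (NCBI Gene 77018, chr3:130180358-130599884), a chain best known from neurons and muscle, had 241, 47.7 and 108 CPM in control replicates 1 to 3 and 5.42, 13.2 and 7.11 CPM in test replicates 1 to 3. Every control tumor was above every test tumor, and this gene had the smallest unadjusted p of the 35 tested. The log2 fold change was −3.95 ± 0.66 (SE), with an unadjusted p of 0.000408 and an adjusted p of 0.394 by edgeR's quasi-likelihood test, and a two-sided exact permutation p of 0.1. By the edgeR test the adjusted p was 0.0200 without control replicate 2, 0.979 without control replicate 1 and 0.916 without control replicate 3.

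*Col23a1* (NCBI Gene 237759, chr11:51289679-51583925), a transmembrane chain found in epithelia, had 66.5, 12.3 and 46.1 CPM in the control and 12.1, 9.4 and 2.65 CPM in the test tumors. The groups did not overlap, but control replicate 2 and test replicate 1 were nearly equal. On the log2 scale the difference was −2.37 ± 0.73 (SE), with an adjusted p of 0.454 by edgeR's quasi-likelihood test. *Col17a1* (12821, chr19:47646341-47692042), the hemidesmosome chain that fastens basal epithelial cells to the basement membrane, had 3.24, 21.5 and 77.8 CPM in the control and 68.5, 8.3 and 44.4 CPM in the test tumors. Low and high tumors were found in both groups, and the log2 fold change of 0.24 ± 1.05 (SE) ran from −0.37 to 1.7 as each tumor was left out. *Col13a1*, a chain of cell junctions, had 0.461 to 4.26 CPM and a log2 fold change of −0.20 ± 0.85 (SE).

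**Figure D4:**
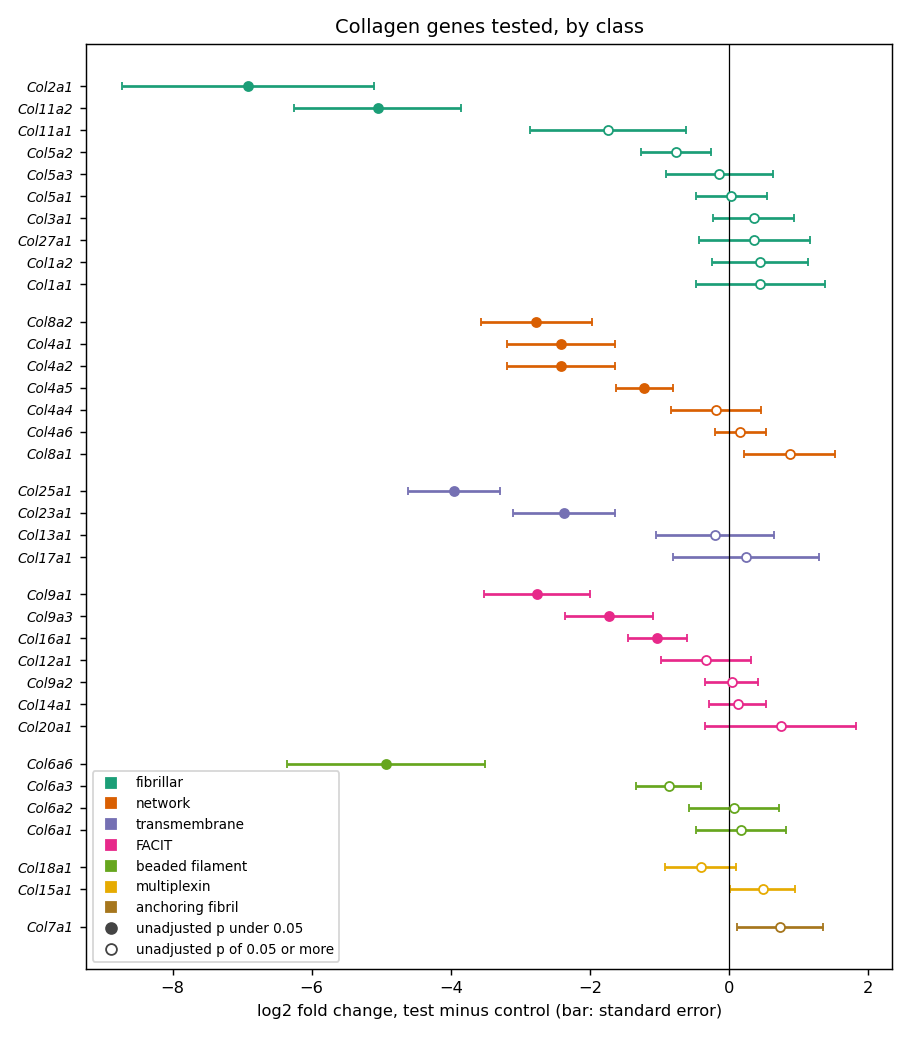
Log2 fold change, test minus control, of the 35 collagen genes tested (x axis), grouped by class in colour. Bars are the standard error obtained from the F statistic of the edgeR test, and filled points have an unadjusted p under 0.05. All 12 filled points lie left of 0, from *Col2a1* at −6.91 to *Col16a1* at −1.03.

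Of the FACIT genes outside type IX, *Col16a1* (NCBI Gene 107581, chr4:130047817-130099277), a chain of connective tissue, had 402, 134 and 179 CPM in the control and 90.9, 134 and 125 CPM in the test tumors. Only control replicate 1 was well above the rest. The log2 fold change was −1.03 ± 0.43 (SE), with an adjusted p of 0.578 by edgeR's quasi-likelihood test, and it was −0.43 without control replicate 1. *Col12a1* and *Col14a1*, which associate with type I fibrils, had log2 fold changes of −0.33 ± 0.65 and 0.12 ± 0.41 (SE). *Col20a1*, with at most 3.59 CPM, had 0.74 ± 1.08 (SE). *Col19a1* and *Col22a1* were not tested, and *Col22a1* had 8 counts in test replicate 1 and 0 in the other tumors.

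Type VI chains form beaded filaments at the border of cells and matrix. Of 4 tested, 2 were lower and 2 higher in the test tumors, and 1 had an unadjusted p under 0.05 (8.41% of all genes tested). *Col6a1* (NCBI Gene 12833, chr10:76708792-76726044) had 60.3, 202 and 229 CPM in control replicates 1 to 3 and 97.2, 349 and 109 CPM in test replicates 1 to 3. *Col6a2* (12834, chr10:76595756-76623630), its neighbour on the chromosome and partner in the trimer, had 50.7, 172 and 215 CPM in the control and 84.4, 289 and 86.7 CPM in the test tumors. Both genes were highest in test replicate 2 and lowest in control replicate 1, and the groups overlapped throughout. Their log2 fold changes were 0.17 ± 0.64 and 0.07 ± 0.65 (SE), and both were negative without control replicate 1 and without test replicate 2. The *Col6a1* to *Col6a2* ratio of FPKM was 0.997 to 1.17 in the 6 tumors. *Col6a3*, the long chain, had a log2 fold change of −0.87 ± 0.47 (SE).

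*Col6a6* (NCBI Gene 245026, chr9:105689417-105828246), a further type VI chain, had 276, 8 and 304 counts in control replicates 1 to 3 and 10, 8 and 0 counts in test replicates 1 to 3. Control replicates 1 and 3 were high and control replicate 2 was at the level of the test tumors. On the log2 scale it was lower in the test tumors, at −4.93 ± 1.42 (SE), with an adjusted p of 0.444 by edgeR's quasi-likelihood test. By the same test the adjusted p was 0.0446 without control replicate 2 and 0.937 without control replicate 3. *Col6a5* was not tested.

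**Figure D5:**
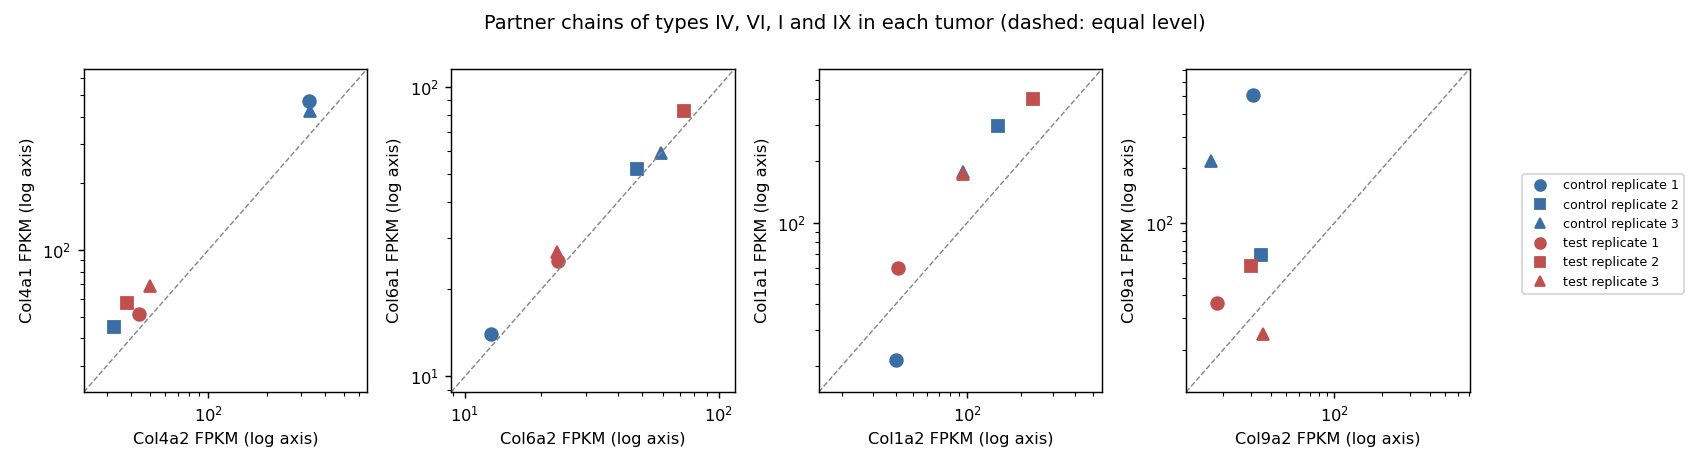
FPKM of partner chains in each tumor, on log axes, for types IV, VI, I and IX; the dashed line marks equal levels. The *Col4a1* and *Col4a2* points keep a ratio of 1.17 to 1.53, whereas the *Col9a1* and *Col9a2* points of control replicates 1 and 3 lie far above the line.

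Per length, the ratio of the type I chains was less even. The *Col1a1* to *Col1a2* ratio of FPKM was 0.528 in control replicate 1 and 1.46 to 2.0 in the other 5 tumors. The *Col1a1* to *Col3a1* ratio was 0.313 in control replicate 1 and 1.25 to 2.25 in the others. Control replicate 1 was thus apart from the other tumors in the balance of its type I chains as well as in its type II level.

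The multiplexins, which link basement membranes to the matrix beneath, showed no change that passed the test. *Col18a1* (NCBI Gene 12822, chr10:77052178-77166530), the precursor of endostatin, had 81.5, 35.7 and 145 CPM in the control and 42.2, 63.0 and 91.6 CPM in the test tumors, and its log2 fold change was −0.41 ± 0.51 (SE) that was 0.16 without control replicate 3. *Col15a1* (12819, chr4:47207655-47313167) had 18.5, 38.9 and 69.4 CPM in the control and 42.1, 68.7 and 66.1 CPM in the test tumors, with 0.48 ± 0.47 (SE). *Col7a1* (12836, chr9:108953586-108984875), the chain of the anchoring fibrils beneath stratified epithelium, had 5.21, 19.4 and 32.7 CPM in the control and 41.1, 17.7 and 36.6 CPM in the test tumors, with 0.73 ± 0.62 (SE). The groups overlapped for all of these genes.

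*Col28a1* (NCBI Gene 213945, chr6:7997100-8193709) and *Col26a1* (140709, chr5:136741759-136883376) had too few counts to be tested. *Col28a1*, a chain known from peripheral nerve, had 0, 2 and 2 counts in the control and 30, 8 and 10 counts in the test tumors, so the groups did not overlap. Values of 3 counts or fewer are at the limit that the depth can show. *Col26a1* had 2, 1 and 3 counts in the control and 2, 24 and 5 in the test tumors.

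The genes that make and handle collagen were examined next, from a list of 43 genes, of which 41 were tested. In that list 31 were lower and 10 higher in the test tumors, 8 had an unadjusted p under 0.05 (19.5% of those tested, against 8.41% of all genes tested), and 0 passed the adjusted test. Those 8 were 7 lower and 1 higher, where 5.26% and 3.15% of all genes tested were lower and higher at that p. By any amount 48.5% of all genes tested were lower, and the median log2 fold change of the list was −0.70, against 0.018. Among the 19 synthesis genes 14 were lower, and among the 13 maturation genes 9 were lower. Of the 9 receptors, 8 were lower.

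*Plod1*, a lysyl hydroxylase that modifies new chains before they fold, had 757, 110 and 534 CPM in the control and 38.7, 59.3 and 59.0 CPM in the test tumors. Every control tumor was above every test tumor, and the log2 fold change was −3.16 ± 0.66 (SE), with an adjusted p of 0.394 by edgeR's quasi-likelihood test. The galactosyltransferases *Colgalt1* and *Colgalt2*, which add sugar to hydroxylysine, had log2 fold changes of −0.63 ± 0.25 and −3.26 ± 1.12 (SE), and the prolyl hydroxylase *P4ha2* had −1.44 ± 0.54 (SE). *Creb3l1*, a transcription factor for collagen genes, had 41.3, 32.6 and 50.3 CPM in the control and 144, 51.3 and 86.0 CPM in the test tumors. It was the member of the list with an unadjusted p under 0.05 that was higher in the test tumors, at 1.18 ± 0.40 (SE). The chaperones *Serpinh1* and *Ppib* and the prolyl hydroxylase subunit *P4hb* had −1.34 ± 0.69, 0.27 ± 0.32 and 0.64 ± 0.51 (SE).

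Among the genes that finish fibrils, *Loxl4*, a cross-linking oxidase, had 6.71, 7.14 and 6.39 CPM in the control and 1.5, 2.08 and 3.18 CPM in the test tumors, without overlap. Its log2 fold change was −1.57 ± 0.45 (SE), and that of the related *Loxl3* was −1.66 ± 0.69 (SE). *Lox*, the founding member of this family, was higher in every test tumor than in any control tumor, with 23.4, 21.4 and 11.1 CPM in the control and 34.7, 23.8 and 25.9 CPM in the test tumors. Its difference of 0.60 ± 0.35 (SE) on the log2 scale had an adjusted p of 0.7 by edgeR's quasi-likelihood test. *Mrc2*, a receptor by which cells take up collagen, had 387, 26.4 and 120 CPM in the control and 8.88, 30.4 and 20.8 CPM in the test tumors. The groups overlapped through control replicate 2, and the log2 fold change was −3.15 ± 0.92 (SE). The adhesion receptors *Itgb1* and *Ddr1* had −0.47 ± 0.30 and −0.32 ± 0.41 (SE), and *Sparc*, a collagen-binding protein, had −0.83 ± 0.57 (SE).

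Other cell types that make collagen, or that a dissected tumor could carry, were measured by summed marker FPKM. Fibroblast markers had 198.5, 118 and 208 FPKM in control replicates 1 to 3 and 259, 259 and 100.3 FPKM in test replicates 1 to 3. Of these 8 markers, 3 were lower and 5 higher in the test tumors, so the sum hides opposite changes. An unadjusted p under 0.05 by the edgeR test was found for 3 of them (8.41% of all genes tested). *Dpt* was higher, at 1.64 ± 0.37 (SE), and *Fbln1* lower, at −1.15 ± 0.38 (SE), both without overlap. *Pdpn* was lower with overlap, at −2.36 ± 0.71 (SE). Pericyte and smooth muscle markers had 29.7 to 201 FPKM in the control and 29.1 to 160 FPKM in the test tumors. Of these 6 markers, 5 were lower and 1, *Des*, was higher in the test tumors (48.5% of all genes tested were lower). Of the 6, 0 had an unadjusted p under 0.05 by the edgeR test. Basal epithelial markers had 105 to 337 FPKM in the control and 138 to 189 FPKM in the test tumors. Of these 5 markers, 4 were lower and 1 higher in the test tumors, so this sum too hides single changes. An unadjusted p under 0.05 by the edgeR test was found for 1 (8.41% of all genes tested). It was *Trp63*, at −3.15 ± 1.09 (SE), with 99.3, 4.01 and 15.8 FPKM in the control and 1.61 to 5.58 FPKM in the test tumors. In the same order, suprabasal epidermis markers had 1.2 to 1.69 and 1.17 to 5.99 FPKM, and leukocyte markers 24.7 to 51.3 and 21.4 to 27.98 FPKM. All 4 leukocyte markers tested were lower in the test tumors (48.5% of all genes tested). Of these, 1 had an unadjusted p under 0.05 by the edgeR test (8.41% of all genes tested). Skeletal muscle markers had 4.45, 94.3 and 2.72 FPKM in the control and 427, 98.7 and 57.0 FPKM in the test tumors. Adipocyte markers had 0.27 to 6.31 FPKM in the control and 1.62 to 230 FPKM in the test tumors. The 2 adipocyte markers with enough counts to be tested were higher in the test tumors. Both had an unadjusted p under 0.05 by the edgeR test (8.41% of all genes tested). The sum in test replicate 3 lay within the control range. Muscle markers were low in control replicates 1 and 3, the tumors high in types II and IV collagen, and their part in the collagen values was not tested.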

How the data were processed

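Total RNA of 6 breast tumors was sequenced on an Illumina HiSeq (Beijing Genomics Institute), with reads aligned to mm10 by Bowtie per the paper. Bowtie, BWA and RSEM stand in the submitters' processing notes, and the annotation release is not given in the sources used here. Per tumor, the values deposited by the authors are the expected count of each gene, without normalization, and its FPKM, normalized for gene length and depth. Of 18460 NCBI Gene identifiers, 18400 matched the GENCODE vM21 annotation (GRCm38). Genes absent from a tumor's list were set to 0.

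Counts, rounded to integers, were tested by edgeR 4.0.16 under R 4.3.3 (filterByExpr, TMM, quasi-likelihood test, 3 test against 3 control tumors, Benjamini-Hochberg adjustment). CPM uses TMM library sizes, and the exact permutation tests used log2(CPM + 0.5). Genes named with full values had an unadjusted p under 0.05, did not overlap between groups, or were among the 2 highest or the largest change of their class. Other collagen and pathway genes were named for their role after their values were seen. The members and lists were chosen with earlier results of these data known. Alternatives were DESeq2 1.42.0, limma 3.58.1 on log2 FPKM with a pseudocount of 1 or 0.1 where mean FPKM reached 1, RLE scaling, no filter, at least 10 counts in every tumor, the replicate number as a block, and leaving out each tumor. The test was checked on simulated counts. Depth limits a value to a floor of 3 counts, which covers counting error only. Promoter sequences are from RefSeq.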

Additional observations from a re-analysis of the deposited data

How the results depend on the processing

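The count of collagen genes at an adjusted p of 0.05 was 0 in edgeR and under RLE scaling, both filters, the replicate block and both limma fits. It was 8 with DESeq2. Leaving out each tumor gave 0 to 6, with 6 only without control replicate 2, and the cause was not tested. The count at an unadjusted p under 0.05 was 12, was 8 to 13 when each tumor was left out, and was 7 with the replicate block. The replicate numbers do not pair the tumors: the groups were different mice, and same-numbered tumors had correlated deviations of −0.025, 0.121 and −0.137. With the block, the median log2 fold change was −0.19 over all collagen genes, 0.01 over fibrillar, −1.21 over network and −1.25 over transmembrane genes. The transmembrane median of −1.28 was −2.37 with at least 10 counts in every tumor and −2.22 with limma on log2(FPKM + 0.1), and −1.69 to −0.73 when each tumor was left out. The network median was then −1.49 to −0.94.

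Leaving out 1 tumor turned the sign of log2 fold changes that had not passed any test: *Col1a1* (−0.47 to 1.17), *Col3a1* (−0.51 to 0.75), *Col17a1* (−0.37 to 1.7), *Col6a1* (−0.67 to 0.49), *Col6a2* (−0.77 to 0.45) and *Col18a1* (−0.78 to 0.16). The 12 genes with an unadjusted p under 0.05 stayed lower in the test tumors under every alternative that tested them. With 3 tumors a group, a permutation p cannot be below 0.1.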
